A study of Homo sapiens with 6 samples.

Results

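MYT1, MYT1L and ST18 are the genes that encode the MYT1 family of zinc-finger transcription factors, and 1 of them encodes the protein against which the study's antibody was directed. The 3 genes were taken by name from the RefSeq gene table of GRCh38, out of 20037 protein-coding genes. Every deposited peak that touched a gene body, or the 50 kb on either side of it, was counted as lying at that gene. The 3 windows held 43 of the 91262 peaks listed in the 6 libraries, all of them from MYT1L libraries, and these joined into 30 of the 49028 regions found when overlapping peaks of the 4 lists were merged. MYT1 lies at chr20:64164452-64242253 on the forward strand, MYT1L at chr2:1789113-2331275 on the reverse strand, and ST18 at chr8:52110838-52409879. No annotation of exons was used here, so positions are given relative to gene ends only.

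The data came from CUT&RUN, in which an antibody directs a nuclease to its target on chromatin and the released DNA fragments are sequenced. A total of 6 libraries were made from wild-type H1 cells, an established human embryonic stem cell line, at day 30: 4 with an antibody against MYT1L and 2 with IgG, the control for fragments released without a specific target. The series' design text describes these cells as cortical interneurons derived from stem cells, whereas the cell type label reads embryonic stem cells. Peak lists hold no expression values, so neither description could be checked against marker genes, and a lower occupancy per cell cannot be told apart from a smaller share of occupied cells. The labels do not state that replicates came from separate cultures, so the p-values measure only the spread between these libraries.

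MYT1 family proteins carry clusters of CCHHC zinc fingers, which bind a short AAGTT core in DNA, and they recruit SIN3 and histone deacetylase complexes. MYT1L is expressed in postmitotic neurons, where it is known as a repressor of non-neuronal programmes, including Notch signalling, and as a factor used to convert fibroblasts to neurons. MYT1 is known from neural and endocrine progenitors and from oligodendrocyte precursors, and ST18, also called MYT3, from neuronal progenitors and pancreatic islets.

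The promoters of MYT1 and MYT1L are shown because neither overlapped a peak, and that of the neighbouring gene PCMTD2 because a reproducible region of the MYT1 window, with peaks in at least 3 of the 4 MYT1L libraries, lay across it. Each line gives the 250 bases that precede a transcription start, 5′ to 3′ on the gene's own strand, from the RefSeq promoter table of GRCh38. Capitals mark CG dinucleotides. The MYT1 stretch lies at chr20:64164202-64164451 on the forward strand, the MYT1L stretch at chr2:2331276-2331525 on the reverse strand, and the PCMTD2 stretch at chr20:64255498-64255747 on the forward strand.
MYT1: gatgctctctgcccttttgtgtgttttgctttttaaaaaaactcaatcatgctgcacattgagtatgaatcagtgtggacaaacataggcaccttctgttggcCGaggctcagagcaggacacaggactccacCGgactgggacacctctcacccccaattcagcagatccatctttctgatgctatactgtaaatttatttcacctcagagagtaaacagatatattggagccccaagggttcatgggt
MYT1L: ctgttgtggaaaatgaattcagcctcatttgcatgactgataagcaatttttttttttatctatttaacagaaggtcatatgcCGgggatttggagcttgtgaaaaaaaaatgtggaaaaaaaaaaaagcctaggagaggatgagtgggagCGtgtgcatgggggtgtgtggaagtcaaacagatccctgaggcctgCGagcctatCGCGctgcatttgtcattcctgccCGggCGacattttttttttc
PCMTD2: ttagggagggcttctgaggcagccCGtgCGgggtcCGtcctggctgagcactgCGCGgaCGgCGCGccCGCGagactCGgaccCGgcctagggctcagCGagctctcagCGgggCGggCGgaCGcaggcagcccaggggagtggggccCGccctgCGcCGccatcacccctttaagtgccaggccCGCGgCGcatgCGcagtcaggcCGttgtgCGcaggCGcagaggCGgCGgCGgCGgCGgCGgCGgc
The MYT1 and MYT1L stretches held 45.6% and 43.2% G+C, with 2 and 7 CG dinucleotides. The PCMTD2 stretch held 76.8% G+C and 34 CG dinucleotides. The same stretch before PXDN, a neighbour of MYT1L, held 78.4% and 32, and it overlapped a region of 2 libraries but no reproducible one. Over the 35116 promoters of the table the medians were 58% and 11. G+C content was lower than that of MYT1 in 23.2% of promoters and lower than that of MYT1L in 18.6%, against 92.5% for PCMTD2.

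The bases AAGTT, read on both strands (AACTT on the other), were in none of these 3 stretches. They were in 30.3% of all promoters of the same length, and the longer AAAGTTT, which contains AAGTT and reads AAACTTT on the other strand, was in 3.75%. RefSeq lists 3 further starts for MYT1L, inside the gene at 2326311, 2324689 and 2324345. The 250 bases before them held 1, 1 and 2 matches to AAGTT or AACTT. The table had promoters for 2 of the 3 genes, and ST18 is named only.

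No peak of any library lay near a start of MYT1L. The nearest peak to its 4 starts was 131 to 137 kb away, whereas the median promoter in the table had a peak within 0.379 kb. Depending on the start, 3.04% to 3.30% of promoters were farther from a peak. The stretch without peaks ran from 2187444 to 2462196 on chromosome 2, a length of 275 kb, of which 144 kb lay in the 5′ part of the gene and 131 kb upstream of it.

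Near the start of MYT1 there was a single weak peak. MYT1L replicate 4 listed it at chr20:64164585-64164889, 133 bp after the start, with a fold of 3.69 and a height of 14 fragments, and the other 5 libraries listed nothing there. Here and throughout, the fold is the authors' value for each peak, its height over the local background. Only 5.10% of the peaks in that library's list had a lower fold. ST18 had no peak within 1 kb of either end.

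A region found in any number of MYT1L libraries lay within 1 kb of an end in 69.2% of all protein-coding genes, and among the family in 1 of 3, MYT1. A reproducible region, defined by a peak in at least 3 of the 4 libraries, lay within 1 kb of an end in 41.1% of protein-coding genes and in 0 of the 3. Base composition moved with these counts. When promoters were ranked by G+C content and cut into 10 bins, 1.0% of those with 38.4% to 43.6% G+C, the bin that holds MYT1L, overlapped a reproducible region. The share was 4.46% in the bin of MYT1, from 44% to 48.8%, and 58.1% in the bin of PCMTD2, from 75.6% to 96.4%, against 28.6% of all promoters. The part of base composition in the absence of peaks over the promoter stretches of MYT1 and MYT1L was not tested.

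**Figure D1:**
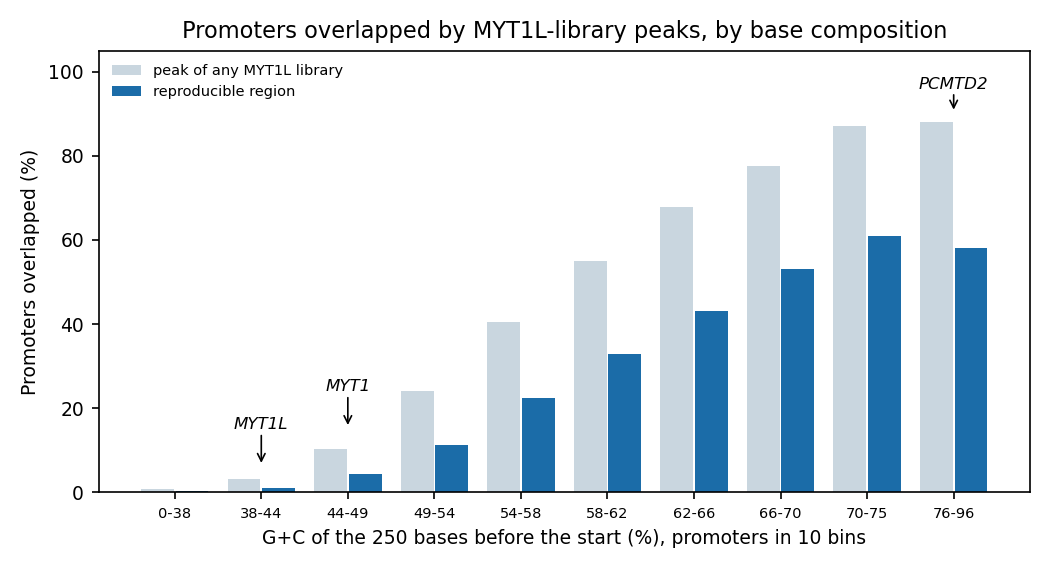
Share of promoters that overlapped a region (vertical axis, percent) in 10 bins of promoters ordered by G+C content (horizontal axis, percent), for regions of any number of MYT1L libraries and for reproducible regions, with the bins of MYT1, the outermost start of MYT1L and PCMTD2 marked. The share for reproducible regions was 1.0% in the bin of MYT1L, 4.46% in that of MYT1 and 58.1% in that of PCMTD2.

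The MYT1 window held 8, 2, 2 and 9 peaks in MYT1L replicates 1 to 4, and none in either IgG library. Replicates 1 and 4 were high and replicates 2 and 3 low, and no MYT1L library overlapped the IgG libraries. The mean was 5.25 ± 3.77 peaks (SD, n = 4), and the difference from IgG had p = 0.133 in a two-sided exact permutation test over libraries (adjusted p = 0.167, Benjamini-Hochberg over 5 results). With 4 libraries against 2, the smallest two-sided p that the exact test allows is 0.0667, so no result could pass 0.05.

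The MYT1L window held 5, 2, 3 and 9 peaks in MYT1L replicates 1 to 4 and 0 in both IgG libraries. Replicate 4 alone gave 9 of the 19 peaks, and again each MYT1L library exceeded both controls. The mean was 4.75 ± 3.10 (SD, n = 4) with p = 0.133 in the exact permutation test (adjusted p = 0.167). The order of the MYT1 and MYT1L counts turned with the window and the threshold: the mean was 1.75 at MYT1 and 3.25 at MYT1L with the gene body alone, and 2.5 and 3.25 with −log10 q of at least 5.

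The ST18 window held 1 peak in replicate 1 and 2 peaks in replicate 4. Replicates 2 and 3 and both IgG libraries listed none, so the groups overlapped at 0. The mean was 0.750 ± 0.957 (SD, n = 4) with p = 0.733 in the exact permutation test (adjusted p = 0.733).

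**Figure D2:**
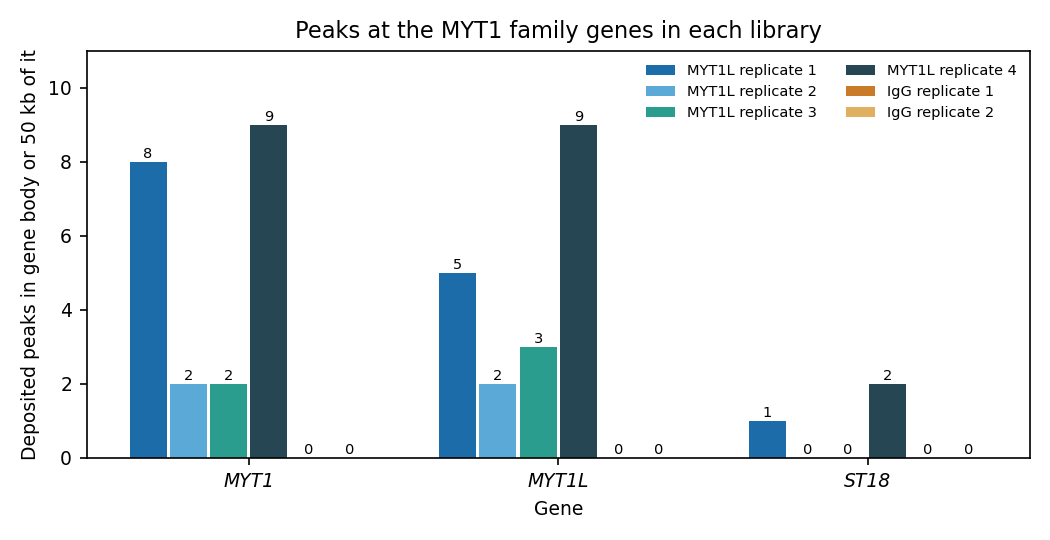
Number of listed peaks (vertical axis) in the window of each gene (horizontal axis), with a bar and its count for each of the 4 MYT1L and 2 IgG libraries. The MYT1L libraries gave 2 to 9 peaks at MYT1, 2 to 9 at MYT1L and 0 to 2 at ST18, and every IgG library gave 0.

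Across the 3 windows the MYT1L libraries listed 14, 4, 5 and 20 peaks, a mean of 10.8 ± 7.63 (SD, n = 4, exact permutation p = 0.133, adjusted p = 0.167). The lists themselves differed in length, with 27926, 12310, 18966 and 30086 peaks. As a share of its own list each library had 0.0501%, 0.0325%, 0.0264% and 0.0665% of its peaks at the family, so replicates 1 and 4 stayed the higher pair. The mean share was 0.0439 ± 0.0181% (SD, n = 4) against 0 in IgG, with p = 0.0667 in the exact permutation test, the smallest it can give (adjusted p = 0.167).

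As a share of the list, the 0 in IgG carries little weight, because the IgG lists held only 976 and 998 peaks. At the mean share of the MYT1L libraries, lists of that length would hold 0.428 and 0.438 peaks in the 3 windows, and a count of 0 allows a share of up to 0.307% and 0.301% (3 peaks of the list, counting error only). On this scale a difference in share from IgG was not detectable with lists of this length. List length is not depth: MYT1L replicate 2 listed 12310 peaks at 2.25 fragments per kb, and IgG replicate 1 listed 976 at 1.55. The IgG libraries were also shallower, at 1.55 and 0.949 fragments per kb against 2.25 to 5.99 in the MYT1L libraries, as recovered from the deposited folds and p-values.

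Peak height gives a view by depth rather than by list length, with higher expected counts than the 0.428 and 0.438 obtained from list length. If each peak were thinned to the depth of IgG replicate 1, the binomial and Poisson distributions give an expected 2.60, 2.75, 1.48 and 4.40 family peaks still listed from MYT1L replicates 1 to 4. Thinning to IgG replicate 2 instead left 1.33, 1.47, 0.992 and 2.03. The count in each IgG library was 0. Only peaks already listed in the MYT1L libraries entered, with their observed heights, so the expected counts tend to run high. Setting them beside the IgG count is a description and not a test of a difference.

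Among all protein-coding genes, 58.6% had more peaks in every MYT1L library than in either IgG library, and MYT1 and MYT1L were 2 such genes among the 3. An IgG peak lay in the window of 8.78% of protein-coding genes and of none of the 3. The nearest IgG peak to any region of the family was 28.7 kb away for MYT1, 326 kb for MYT1L and 2057 kb for ST18.

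The genes differ in length, with bodies of 77.8 kb for MYT1, 542 kb for MYT1L and 299 kb for ST18. Per Mb of window, MYT1 held 45.0, 11.2, 11.2 and 50.6 peaks in replicates 1 to 4. MYT1L held 7.79, 3.11, 4.67 and 14.0, and ST18 held 2.51, 0, 0 and 5.01. With the flanks included, the order was MYT1, then MYT1L, then ST18 in 4 of 4 libraries. The means were 29.5 ± 21.2, 7.40 ± 4.82 and 1.88 ± 2.40 peaks per Mb (SD, n = 4), so the ranges given by mean and SD overlapped between neighbours in that order. Peaks touching the body numbered 2, 1, 0 and 4 at MYT1 and 2, 1, 2 and 8 at MYT1L in replicates 1 to 4. By the body alone, replicate 3 did not keep that order.

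Set against the 6269 protein-coding genes with a body of at least 50 kb, whose median was 8.99 peaks per Mb (quartiles 5.24 and 14.0), MYT1 was denser than 97.4%, MYT1L than 39.0% and ST18 than 6.17%. Against all protein-coding genes, which are mostly shorter and had a median of 13.6, the values were 85.8%, 25.7% and 5.38%. The place of MYT1 moved with the library: it was denser than 98.3%, 81.7%, 68.8% and 98.7% of the long genes in replicates 1 to 4. These densities are of the window with its flanks. At MYT1 the flanks alone held 6, 1, 2 and 5 of the 8, 2, 2 and 9 peaks in replicates 1 to 4.

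**Figure D3:**
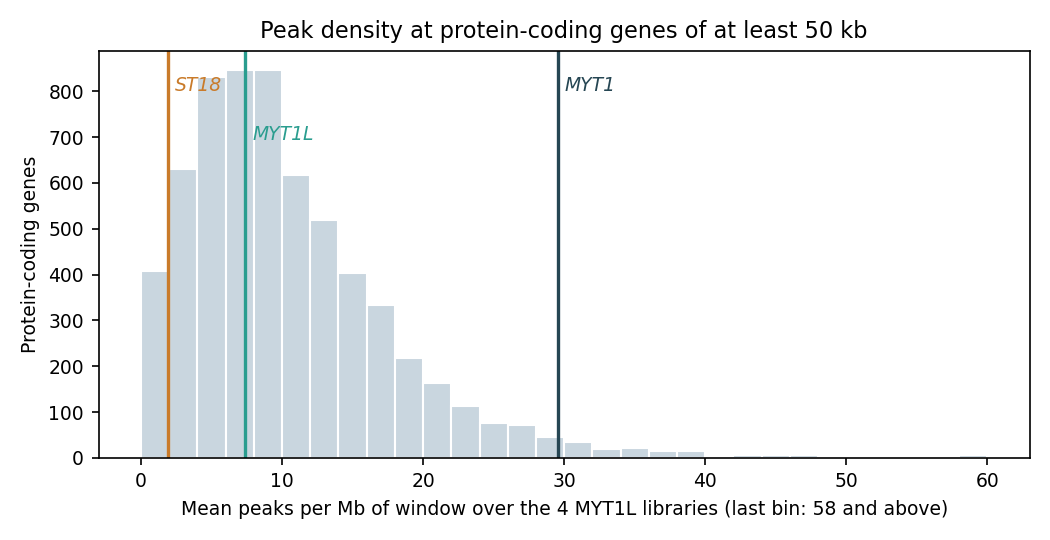
Distribution of peaks per Mb of window, as the mean of the 4 MYT1L libraries (horizontal axis), over 6269 protein-coding genes with a body of at least 50 kb (vertical axis, number of genes), with lines at MYT1, MYT1L and ST18 and the last bin holding all higher values. MYT1 stands at 29.5 in the upper tail, MYT1L at 7.40 below the median of 8.99, and ST18 at 1.88 in the lower tail.

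Of the 30 regions, 21 were found in a single MYT1L library, 6 in 2, 2 in 3 and 1 in all 4. Replicate 4 alone supplied 13 of the 21, replicate 1 supplied 6, and replicates 2 and 3 supplied 1 each. Peaks in at least 3 libraries made up 25.1% of all regions and 3 of the 30 (10%). Peaks in at least 2 made up 41.9% of all regions and 9 of the 30 (30%). A reproducible region lay in the window of 72.6% of protein-coding genes, or of 78% of those with a body of at least 50 kb, and in the window of 2 of the 3, MYT1 and MYT1L. By place, 17 of the 30 regions were inside a gene of the family, 1 was at an end of such a gene, 2 were at an end of another protein-coding gene, and 10 were elsewhere in the flanks.

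**Figure D4:**
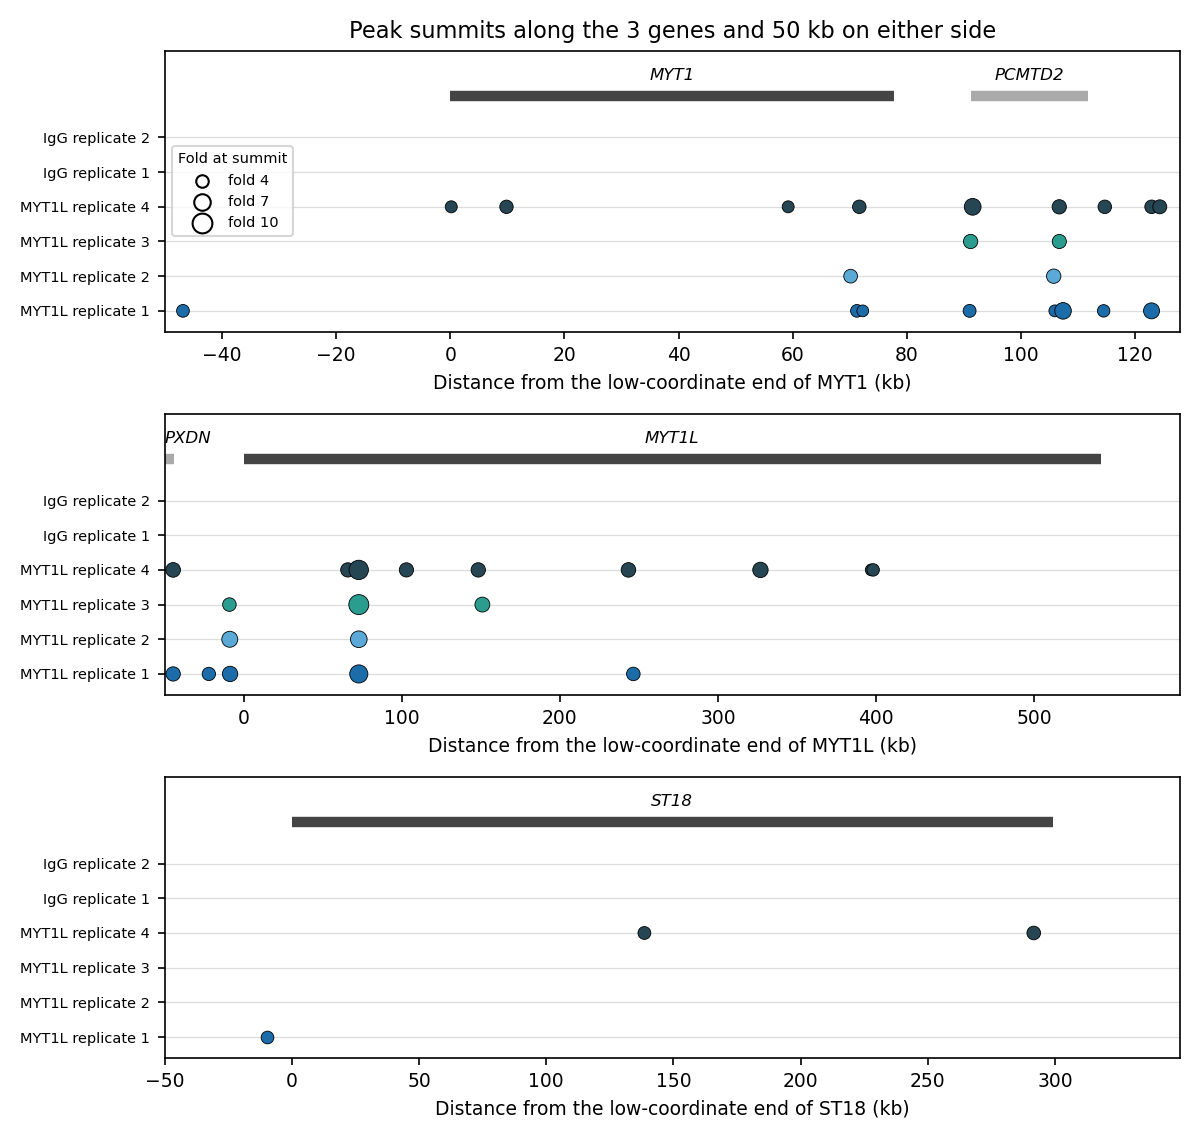
Peak summits of each library (rows) along the window of each gene, as distance in kb from its low-coordinate end, with protein-coding gene bodies as bars and the fold as the size of each point. Summits of several libraries line up at region 5 of MYT1L and at the start of PCMTD2, the ST18 window holds 3 peaks, and the IgG rows are empty.

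In what follows the regions of each gene are numbered from the lowest coordinate upward. The MYT1L gene had 13 regions, of which 10 were found in a single library, 1 in 2, 1 in 3 and 1 in all 4. The region of all 4 libraries, region 5, was the highest of the family. It lay at chr2:1861740-1861994, inside the gene, 72.6 kb from the 3′ end and 469 kb from the farthest start.

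MYT1L region 5 had folds of 8.43, 7.10, 10.2 and 9.60 in replicates 1 to 4, a mean of 8.83 ± 1.36 (SD, n = 4). Its heights were 34, 15, 41 and 35 fragments over local backgrounds of 3.15, 1.25, 3.13 and 2.75, and its −log10 q ranged from 8.41 in replicate 2 to 27.6 in replicate 3. The summits fell within 35 bp of each other, at 1861866, 1861865, 1861868 and 1861833. The fold was above those of 95.5%, 84.8%, 97.8% and 88.0% of the peaks in the same lists, so it was high in every library, including the shallowest.

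A region of all 4 libraries in the gene body is common, and 36.9% of the protein-coding genes of at least 50 kb had one. Within the 5952 regions of all 4 libraries, whose median fold was 6.80, MYT1L region 5 had a higher mean fold than 88.3%. It was also among the narrowest, at 255 bp against a median of 883.5 bp, and 0.487% of these regions were narrower. Among the 94 regions of all 4 libraries that were at most 300 bp wide, a limit chosen after the width had been seen, 50 (53.2%) overlapped an IgG peak and 0 lay within 1 kb of an end of a protein-coding gene. Of the 5858 wider ones, 14.9% overlapped an IgG peak and 63.2% lay near an end.

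At MYT1L region 5 itself no IgG peak was listed, and the nearest was 444 kb away. Thinned to the depth of IgG replicate 1, the peaks of MYT1L replicates 1 to 4 would have stayed listed with probabilities of 81.5%, 93.8%, 94.7% and 92.2%. At the depth of IgG replicate 2 the probabilities were 45.7%, 66.1%, 77.4% and 72.1%. These peaks were taken because the MYT1L libraries listed them, so their heights, and with them the probabilities, tend to run high. The absence of an IgG peak there is therefore not a test of a difference. The local background of region 5 stood at 2.66, 2.98, 2.97 and 3.07 times the library's genome-wide background, above the medians over all peaks of 1.54, 1.78, 1.43 and 2.15. The part of this raised local background, or of the narrow width, in the result was not tested.

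**Figure D5:**
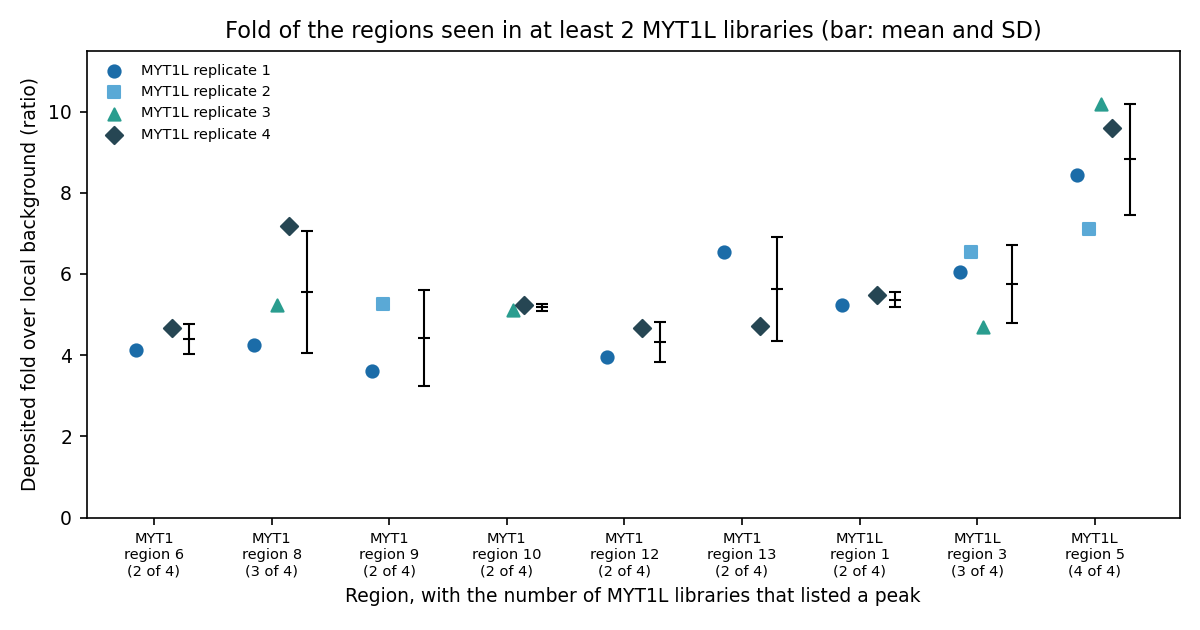
Fold over local background (vertical axis) of the 9 regions found in at least 2 MYT1L libraries (horizontal axis), with a symbol for each library that listed a peak and a bar for the mean and SD over those libraries. Region 5 of MYT1L stands at 7.10 to 10.2, and within each library its fold is the highest of these regions.

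MYT1L region 3, at chr2:1779594-1780751, lay 8.36 kb beyond the 3′ end of the gene. Its folds were 6.06, 6.54 and 4.69 in replicates 1 to 3, a mean of 5.76 ± 0.958 (SD, n = 3), with heights of 19, 13 and 14 fragments, and replicate 4, which has the longest list, had no peak there. The summits were up to 423 bp apart, within a region of 1158 bp.

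MYT1L region 1, at chr2:1743735-1744651, lay at the start of PXDN, which encodes the extracellular matrix enzyme peroxidasin, 44.5 kb beyond the 3′ end of MYT1L. It was listed in replicates 1 and 4, with folds of 5.24 and 5.49 and heights of 22 and 23 fragments. The 10 regions of a single library had folds of 3.50 to 6.05, the highest at chr2:2115825-2116040 in replicate 4. Inside the body, every region other than region 5 came from a single library.

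The MYT1 gene had 14 regions: 8 of a single library, 5 of 2 and 1 of 3. Its reproducible region, region 8, lay at chr20:64255303-64256121. This was 13.1 kb beyond the 3′ end of MYT1, across the start of PCMTD2, a gene related to protein repair methyltransferases, and it overlapped the CG-rich promoter stretch shown above. Folds were 4.26, 5.23 and 7.19 in replicates 1, 3 and 4, a mean of 5.56 ± 1.49 (SD, n = 3), with heights of 11, 12 and 23 fragments, and replicate 2, the shallowest MYT1L library, had no peak there. The summits were up to 539 bp apart.

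The 5 MYT1 regions of 2 libraries had folds between 3.6 and 6.53. Region 6, at chr20:64235479-64236260, was the only one of them inside the gene, 5.99 kb before its 3′ end, with folds of 4.13 and 4.67 in replicates 1 and 4. Region 9, at chr20:64270015-64270503, had 3.6 and 5.27 in replicates 1 and 2, and region 10, at chr20:64271039-64271341, had 5.12 and 5.24 in replicates 3 and 4. Both lay inside PCMTD2 and the long noncoding RNA gene LOC124904957.

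MYT1 region 12, at chr20:64278861-64279275, had folds of 3.96 and 4.66 in replicates 1 and 4. Region 13, at chr20:64286807-64287394, had 6.53 and 4.72 in the same replicates, with heights of 32 and 15 fragments. Both lay beyond PCMTD2. The 8 regions of a single library had folds of 3.53 to 7.04, the highest at chr20:64271636-64271908 in replicate 1, also inside PCMTD2. By position, 7 of the 14 regions lay beyond the 3′ end of MYT1, 6 touched its body and 1 lay before its start, and 14 of the 21 peaks lay in the flanks alone.

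ST18 had 3 regions, each from a single library. Replicate 1 listed a peak at chr8:52100927-52101266, 9.57 kb outside the low end of the gene, with a fold of 4.12 and a height of 8 fragments. Replicate 4 listed peaks inside the gene at chr8:52249246-52249503 and chr8:52402403-52402812, with folds of 4.22 and 4.75 and heights of 7 and 8. These folds were above only 15.3% to 29.6% of the peaks in their lists, and the local background was at the genome-wide level, at a median ratio of 0.999.

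Compared by gene, the median fold was 4.67 at MYT1, 5.42 at MYT1L and 4.22 at ST18, over 21, 19 and 3 peaks that share libraries and sites. A peak exceeded the median fold of its own list in 4 of 21 cases at MYT1, 9 of 19 at MYT1L and 0 of 3 at ST18. Local background at the peaks was a median of 2.61 times the genome-wide level at MYT1, 1.95 times at MYT1L and 0.999 times at ST18. Its part in the higher density at MYT1 was not tested.

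The rule's limit of 50 kb left these peaks on either side of it. At MYT1 the farthest peaks inside were 46.7 kb from the low end (fold 4.16, replicate 1) and 46.4 kb from the high end (5.01, replicate 4), and the first outside were at 75.5 kb (9.14, replicate 3) and 74.7 kb (4.63, replicate 3). The peak at 75.5 kb, with a fold of 9.14, lay at the position of the IgG peak nearest to the MYT1 regions. At MYT1L the farthest inside was 44.6 kb from the low end (5.49, replicate 4), and the first outside were at 61.7 kb on the low side (4.30, replicate 1) and 131 kb on the high side (5.02, replicate 4). At ST18 the only peak in a flank was 9.57 kb from the low end, and the first outside were at 211 kb on that side (8.22, replicate 4) and 60 kb on the other (4.58, replicate 1).

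Genes of at least 50 kb whose peaks per 100 kb were most like those of each member were found by Euclidean distance over the 6 libraries, on log2(peaks per 100 kb + 0.5). For MYT1 they were CCDC40 (distance 0.259), MCF2L (0.325) and NSL1 (0.451), and CCDC40 had 7, 2, 2 and 7 peaks in MYT1L replicates 1 to 4. For MYT1L they were TEAD1 (0.140), PKNOX2 (0.141) and TIAM1 (0.186), of which TEAD1 and PKNOX2 each had 3, 1, 2 and 5 peaks. For ST18 they were PAK3 (0.0361), COL4A5 (0.0978) and VRK2 (0.112), each with 1, 0, 0 and 2. All genes share the same libraries, with their list lengths and depths, so the distances are a description.

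A list of 15 genes of the pathway was counted in the same way: neuronal transcription factors, corepressor subunits, Notch and Hippo genes, and RARB, a gene with a known MYT1 family binding element. A reproducible region lay in the window of 10 of the 15 (66.7%, against 72.6% of protein-coding genes), and within 1 kb of an end in 8 (53.3%, against 41.1%). More peaks in every MYT1L library than in either IgG library were found in 7 (46.7%, against 58.6%): POU3F2, SIN3A, HDAC2, KDM1A, RCOR1, REST and NOTCH1. The list's median was 1 reproducible region per gene, the same as over all protein-coding genes.

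SIN3A, the scaffold of a histone deacetylase complex, had 8, 2, 5 and 10 peaks in MYT1L replicates 1 to 4 and 5 reproducible regions, the most dense of the list at 33.5 peaks per Mb. RCOR1, a corepressor of the REST complex, had 4, 4, 3 and 5 peaks and 2 reproducible regions. Reproducible regions within 1 kb of an end were also found at the neuronal transcription factor gene POU3F2, the deacetylase HDAC2, the histone demethylase KDM1A, the Notch target HES1, the Hippo pathway coactivator YAP1 and the retinoic acid receptor RARB, whereas MYT1, MYT1L and ST18 had none there. None was found in the windows of NEUROD1, NEUROG2, SIN3B, HDAC1 and REST, and NEUROG2 was the only gene of the list with an IgG peak.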

How the data were processed

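The 6 deposited peak lists, 1 per library, were made by the authors with MACS2 on hg38, per the submitters' processing notes. The version, the threshold, any control and the aligner are not given in the sources used here. The lowest deposited −log10 q was 2.00 to 2.01. In each list the authors give a fold (ratio) over local background, −log10 p and −log10 q per peak and a score, which was 10 times −log10 q, truncated, in at least 99.99% of peaks. The summit offset was used as deposited. Groups follow the titles, although the sample numbers inside the peak names of the MYT1L lists are 1 above those of the titles.

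Peaks on chromosomes 1 to 22, X and Y were read with Python 3.11.15, numpy 2.4.6, pandas 2.3.3 and scipy 1.17.1, and figures drawn with matplotlib 3.10.9. Peaks of the MYT1L lists that shared at least 1 bp were joined into regions, and the 49028 regions equalled the number from bedtools 2.31.1. Heights and backgrounds were solved from fold and −log10 p with the formulas of MACS2, and came out whole in 99.989% to 100% of the peaks of a library with −log10 p up to 200, at a tolerance of 0.001 in −log10 p. The solver was tested on simulated data. The chance that a peak stays listed at IgG depth was computed from the binomial and Poisson distributions. Depth is each library's lowest common background divided by the fragment length read from the steps of its backgrounds, in fragments per kb, since read totals were not used here.

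Counts per window were compared by a two-sided exact permutation test of the difference in means over the 15 arrangements of 6 libraries, with Benjamini-Hochberg adjustment over 5 results. Regions were named if found in at least 2 MYT1L libraries, and otherwise only the highest single-library region per gene, all regions of ST18 and the peak near the start of MYT1, which was chosen after its values were seen. Members and lists were chosen with earlier results of these data known. Gene positions and promoters came from RefSeq tables of GRCh38.p14. The counts for the pathway list cover 15 genes; 2 further genes of the planned list are not reported here, a choice that did not depend on their values. Protein sequences, exons and chromosome lengths were not used here. Alternatives changed the window, the q threshold, the list length, the rule for a reproducible region, the replicates included and the pairing.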

Additional observations from a re-analysis of the deposited data

How the results depend on the processing

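None of 12 alternatives for each count or share reversed a difference between MYT1L and IgG libraries. Except with 100 kb on either side, the IgG count was 0 in every alternative, so a reversal was not possible and its absence carries no weight. No exact permutation p fell below 0.0667, the smallest the design allows. Most alternatives moved sizes. For the 3 windows together the mean difference was 10.8 peaks, 5.5 with the gene body alone, 5.75 with −log10 q of at least 5, 15.3 with 100 kb on either side, where the IgG count was no longer 0, and 0.25 with the 976 top peaks of each list. For MYT1 alone it fell from 5.25 to 1.75 with the gene body alone and 2.5 with −log10 q of at least 5, below MYT1L at 3.25 in both, although it was above MYT1L (4.75) with 50 kb on either side and all listed peaks. For ST18 the difference was 0 with −log10 q of at least 5, and for both ST18 and MYT1 it was 0 when only those top peaks were kept. Leaving out 1 library gave 7.67 to 13 for the 3 windows, 4 to 6.33 for MYT1, 3.33 to 5.67 for MYT1L, 0.333 to 1 for ST18 (0.333 without MYT1L replicate 4) and 0.0363 to 0.0497 percentage points for the share of peaks. The difference in share between MYT1L and IgG libraries was 0.0219 percentage points with the gene body alone and 0.0157 with 100 kb on either side, where the IgG share was above 0. The count of 3 reproducible regions became 9 with at least 2 of 4 libraries, 1 with all 4, 1 with summits within 200 bp, 1 with −log10 q of at least 5, 1 with the gene body alone and 5 with 100 kb on either side. When a library was left out and 2 of the other 3 were asked for, it was 4 to 8, with 8 without MYT1L replicate 2 or replicate 3. With a replicate block over the numbers that both groups share, the difference was 9 peaks for the 3 windows (exact sign permutation p = 0.5, the smallest that 2 pairs give), 5 for MYT1, 3.5 for MYT1L, 0.5 for ST18 and 0.0413 percentage points for the share. Whether equal replicate numbers mark true pairs is not known, and overlap cannot decide it, because the MYT1L lists differ in length. Peaks of IgG replicate 1 overlapped MYT1L replicates 1 to 4 at 88.1%, 70.5%, 85.2% and 85.9%, and those of IgG replicate 2 at 85.7%, 72.5%, 80.4% and 89.7%. The short IgG lists and the number of libraries both limit the comparison with IgG.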
